A study of Bos taurus with 13 samples.

Results

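Of the 13 libraries of the series, 6 came from cells held at 40.5 °C, 3 of them harvested after 6 h (labelled ShortHS) and 3 after 3 days (labelled LongHS), and the change between these harvests is described here. The libraries were taken by their labels and not by any measured value, and were compared in pairs of the same replicate number. The cells were bovine (Bos taurus) mesenchymal stem cells, plastic-adherent stromal cells able to form bone, cartilage and fat, grown as primary cultures of umbilical cord, from early passages, in low-glucose medium with fetal bovine serum. Heat began a day after seeding and lasted without a break until harvest. The background was the same interval at 37 °C, with 3 libraries at 6 h (ShortNT) and 2 at 3 days (LongNT). The other 2 libraries (ShortHS_Recovery) had 6 h at 40.5 °C and then 66 h at 37 °C. The labels do not state how many donors the cultures came from, so the spread between these cultures may be technical. The p-values measure what is left of that spread once differences shared by a replicate number are removed.

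A rise in temperature unfolds proteins, and cells answer within hours by releasing heat shock factors, which switch on chaperone genes while transcription of many other genes is lowered. This first wave is known to decline in cells that stay warm, as the newly made chaperones bind and silence the heat shock factors. Cells kept warm for days then settle at an altered level of transcription, while cultured stromal cells also change as they attach, divide and fill the dish. A comparison of 3 days with 6 h of heat therefore holds both time under heat and time in culture, which is why the 37 °C libraries stand beside it.

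The deposited table identifies genes by Ensembl identifiers without names, and none of its 16595 identifiers could be matched to a symbol in the reference used. Genes are therefore described in groups by how they changed, and 4 are given by identifier. Chaperones, cell cycle genes and markers of stromal or other cell types could not be picked out, so the labelled cell type was not checked. Values are normalised read counts per gene. Reads recovered from them numbered 18594417 to 35349823 in the 6 heated libraries. In bulk RNA a lower value can come from fewer cells of a type or from less RNA per cell, and these cannot be told apart.

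Replicate 3 stood apart from replicates 1 and 2 in both heated groups and in the 6 h control. Replicates 1 and 2 differed from each other by a median of 0.092 on the log2 scale after 6 h of heat and 0.079 after 3 days. Replicate 3 differed from their mean by a median of 0.21 after 6 h and 0.18 after 3 days. The replicate number was therefore kept as a block, and the counts of genes past the threshold are also given for replicates 1 and 2 alone.

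Between 6 h and 3 days at 40.5 °C most of the genes tested changed, in nearly equal numbers up and down. Among 13289 genes, 7626 (57.4%) had an adjusted p under 0.05 in limma, a linear model on log2(value + 1). Of these, 3779 (28.4%) were higher and 3847 (28.9%) were lower after 3 days. Replicates 1 and 2 alone gave 3938 higher and 4034 lower genes. Without the block the count was 5988, of which 5987 were among the 7626 with the same direction.

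Most of these changes were modest, and the rises were the larger. The median change was 0.60 on the log2 scale for the genes that rose and -0.49 for those that fell. A change of at least 1 on that scale, a 2-fold change, was reached by 912 genes upward (6.86% of those tested) and by 672 downward (5.06%). At least 2 was reached by 183 genes upward and 105 downward, and at least 3 by 42 upward and 24 downward. With replicates 1 and 2 alone there were 961 rises and 731 falls of at least 1.

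**Figure D1:**
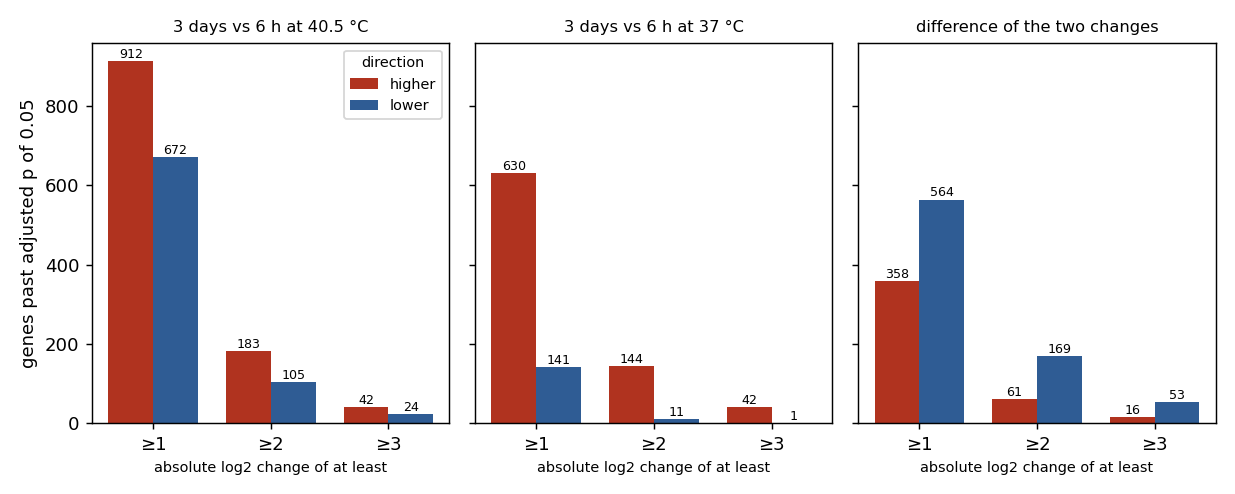
Bars give the number of genes past an adjusted p of 0.05 (limma) whose absolute log2 change was at least 1, 2 or 3, split by direction, for 3 days against 6 h at 40.5 °C, for 3 days against 6 h at 37 °C, and for the difference between these changes. At 37 °C large rises outnumbered large falls, 630 (4.74% of genes tested) against 141 (1.06%) at a change of at least 1, while under heat the numbers were 912 and 672. In the difference, 358 genes (2.69%) were more positive and 564 (4.24%) more negative under heat by at least 1. From replicates 1 and 2 alone there were 672 rises and 173 falls of at least 1 at 37 °C, and 383 and 615 such differences. Without the replicate block the differences of at least 1 were 253 and 306.

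In many genes the heated groups did not overlap. In 3668 genes (27.6%) every 3-day value lay above every 6 h value, and in 3768 genes (28.4%) every 3-day value lay below. Of the 7626 genes past the threshold, 7513 (98.5%) changed the same way in 3 of 3 pairs, against 73.3% of all genes tested. The calls were made from these same pairs, so that agreement follows largely from the choice and is no further support. The pairs were of similar size. Their median absolute log2 change was 0.34, 0.36 and 0.37 for replicates 1, 2 and 3.

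The third pair was also read as a separate sample of the change, with genes picked from replicates 1 and 2 alone. Of the 3938 genes called higher there, 90.8% were also higher in the third pair, with a median log2 change of 0.58 in the first 2 pairs and 0.54 in the third. Of the 4034 called lower, 92.1% were also lower, with medians of -0.47 and -0.43. Over all tested genes the sign was the same in 80.7%. A single pair of libraries allows no test, so these shares are a description.

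ENSBTAG00000012370 and ENSBTAG00000023600 had the largest rises that met the rule for giving a gene by identifier. Their order depends on replicate 3, since replicates 1 and 2 alone gave log2 changes of 5.02 and 5.94. ENSBTAG00000012370 is given first. After 6 h of heat its normalised values were 51.8, 36.5 and 7.98 in replicates 1 to 3, and after 3 days of heat they were 1425, 1466 and 469.8. The groups were far from overlapping, and replicate 3 was the lowest at both times. The log2 change was 5.25 (SE 0.19, limma adjusted p 1.64e-09), and 4.76, 5.29 and 5.71 in the single pairs.

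At 37 °C this gene also rose, to a much lower level. Its values were 27.1, 36.0 and 9.17 at 6 h, and 143.1 and 135.9 at 3 days, a log2 change of 2.06 (SE 0.22, limma adjusted p 3.37e-05). The rise under heat exceeded that at 37 °C by 3.19 (SE 0.29, limma adjusted p 1.78e-05). The recovery libraries, at 180.7 and 160.1, lay near the 3-day control, and that difference did not pass the threshold. Without the replicate block the difference between the rises was 2.57, with an adjusted p of 0.106 in limma.

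The values of ENSBTAG00000023600 were 0.672, 1.26 and 34.2 after 6 h of heat and 115.0, 122.1 and 348.9 after 3 days, so replicate 3 was the highest at both times and the groups did not overlap. The log2 change was 5.07 (SE 0.44, limma adjusted p 1.40e-06), with 6.12, 5.77 and 3.31 in the pairs. The first 2 of the 6 h libraries held 1 read each, which makes their changes imprecise. From the summed reads of each group, 517 against 32, the ratio was 18.0 with an exact 95% interval of 12.6 to 26.5, for counting error only. Replicate 3 held 274 of the 517 reads and 30 of the 32, so it largely sets this ratio.

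In the 37 °C cultures ENSBTAG00000023600 had values of 4.21, 2.45 and 39.0 at 6 h, and of 29.5 and 21.8 at 3 days. That rise was 2.55 on the log2 scale (SE 0.51, limma adjusted p 0.00208). Replicate 3 at 6 h lay above both 3-day values, so these groups overlapped. The 3-day control has no replicate 3, so the size of the rise depends on the block. The recovery values of 23.3 and 19.8 were close to those of the 3-day control. The rise under heat was larger by 2.51 (SE 0.67, limma adjusted p 0.0149), a call that was lost under some alternatives, with adjusted p of up to 0.216. The difference was then 2.68 and 2.34 without either library of the 3-day control, 3.51 without the block and 2.53 in DESeq2.

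ENSBTAG00000047894 and ENSBTAG00000016158 had the largest falls, and their order also depends on replicate 3, with log2 changes of -4.87 and -5.39 in replicates 1 and 2 alone. The values of ENSBTAG00000047894 after 6 h at 40.5 °C were 67.9, 70.5 and 108.4, and after 3 days they were 1.73, 1.11 and 1.27, which is 2, 1 and 1 reads. The log2 change was -5.11 (SE 0.19, limma adjusted p 1.75e-09), and -4.66, -5.08 and -5.59 in the pairs. By summed reads, 4 against 252, the level was 56.7-fold lower, with an exact 95% interval of 21.9 to 209.7 for counting error only.

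Without heat the values of ENSBTAG00000047894 overlapped between the harvests. They were 166.7, 166.8 and 209.8 at 6 h and 164.0 and 171.8 at 3 days, and the recovery libraries had 152.8 and 145.3. The change at 37 °C was -0.0015 on the log2 scale (SE 0.21, limma adjusted p 0.996), and the change under heat differed from it by -5.11 (SE 0.28, limma adjusted p 1.09e-06). It was already lower at 6 h of heat than in its control, by -1.15 (SE 0.19, limma adjusted p 0.000335), in a comparison that called 45.4% of all genes tested. Under 24 alternatives the fall under heat lay between -5.83 and -3.75 and passed the threshold in each.

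The values of ENSBTAG00000016158 went from 207.8, 200.2 and 83.3 after 6 h of heat to 1.73, 7.77 and 3.82 after 3 days. The log2 change was -4.97 (SE 0.36, limma adjusted p 2.80e-07), with -6.26, -4.52 and -4.13 in the pairs. Summed reads of 12 against 541 gave a level 40.6-fold lower, with an exact 95% interval of 23.0 to 79.0, again for counting error only.

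Over the same days at 37 °C ENSBTAG00000016158 fell less, from 182.4, 181.6 and 61.9 to 39.9 and 60.3. That change was -1.67 (SE 0.41, limma adjusted p 0.00737), and the fall under heat was larger by -3.30 (SE 0.55, limma adjusted p 0.00105). Recovery values were 39.9 and 47.9. At 6 h heat and control overlapped, with a log2 difference of 0.25 (SE 0.36, limma adjusted p 0.604).

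**Figure D2:**
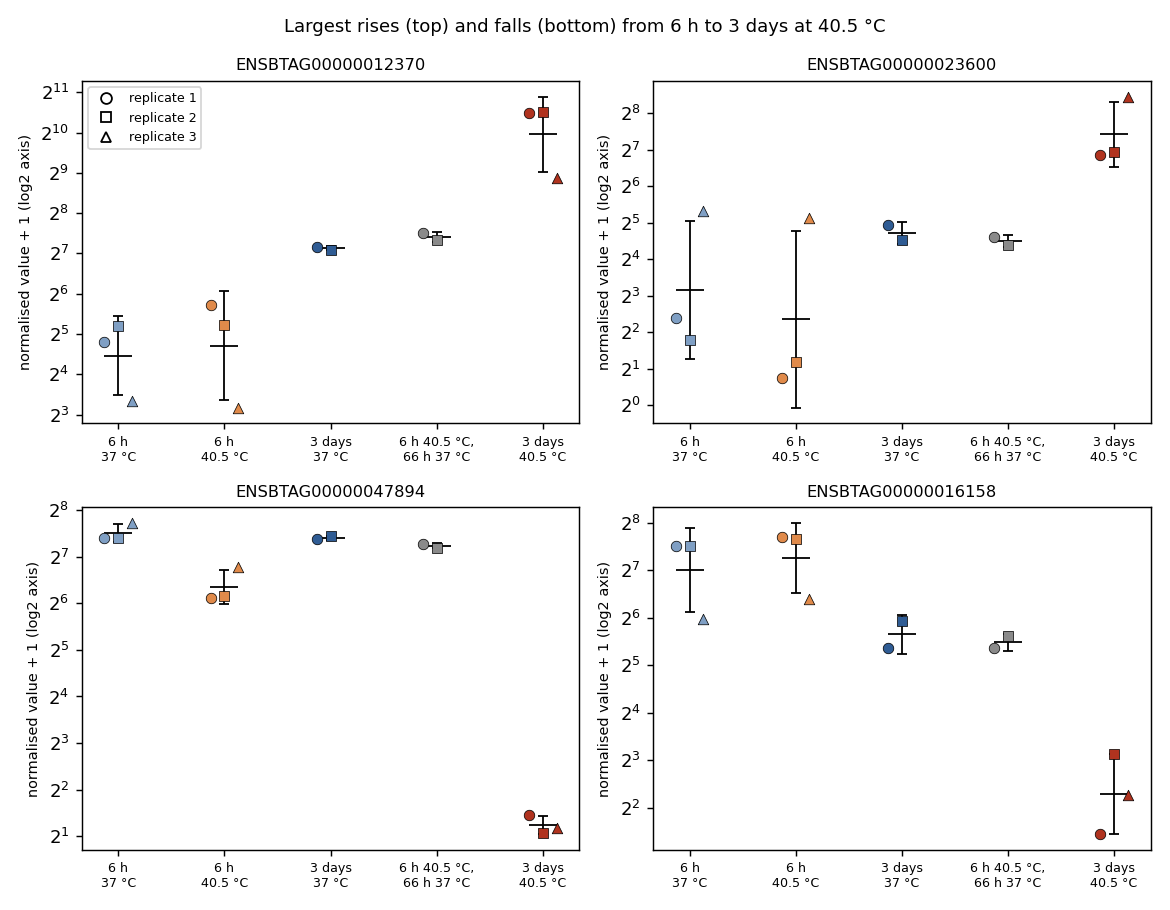
Points are the normalised value plus 1 of single libraries on a log2 axis for the 2 genes with the largest rise (top) and the 2 with the largest fall (bottom), with the replicate as the symbol. Horizontal marks and bars give the mean and SD of log2(value + 1) in each group. ENSBTAG00000047894 lies between 67.9 and 209.8 in every group but 3 days at 40.5 °C, where it is at 1.11 to 1.73.

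Over the same time fewer genes were called without heat, by a margin that depended on the fit. From 6 h to 3 days at 37 °C limma called 4960 of the same 13289 genes (37.3%), 2431 (18.3%) higher and 2529 (19.0%) lower. Replicates 1 and 2 alone gave 6385. A fit of only the libraries of the groups compared gave 5952 at 37 °C, against 6978 under heat. With 2 libraries in the 3-day control this comparison has less power than the one under heat. The count fell to 2676 without replicate 1 of that control.

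The genes chosen by their change under heat were then read in the 37 °C libraries, which are outside that contrast but enter the spread behind its calls. The 3779 genes that rose under heat had a median log2 difference of 0.23 between 3 days and 6 h at 37 °C, and 74.5% of them were higher at 3 days. The 3847 that fell had a median of -0.23, and 77.2% were lower. Over all tested genes the median was -0.018. Within replicates 1 and 2, where no heated library enters the change at 37 °C through the block, the shares were 75.4% and 76.1%. With genes called from the 6 heated libraries alone, 3441 higher and 3537 lower, they were 75.1% and 78.2%.

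With and without heat, 3507 genes were called in common. Of these, 1462 were higher and 1631 lower in both, 3093 in all, and 414 went opposite ways. The shared direction covered 40.6% of the genes called under heat and 62.4% of those called at 37 °C. A further 4119 genes were called under heat and not at 37 °C, and 1453 the other way round, which by itself does not show that their changes differed. Across the 13289 genes the changes with and without heat correlated with r = 0.49 (Spearman's rho 0.50). No library enters both, although a gene's spread was estimated once for both, and genes are not independent replicates.

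**Figure D3:**
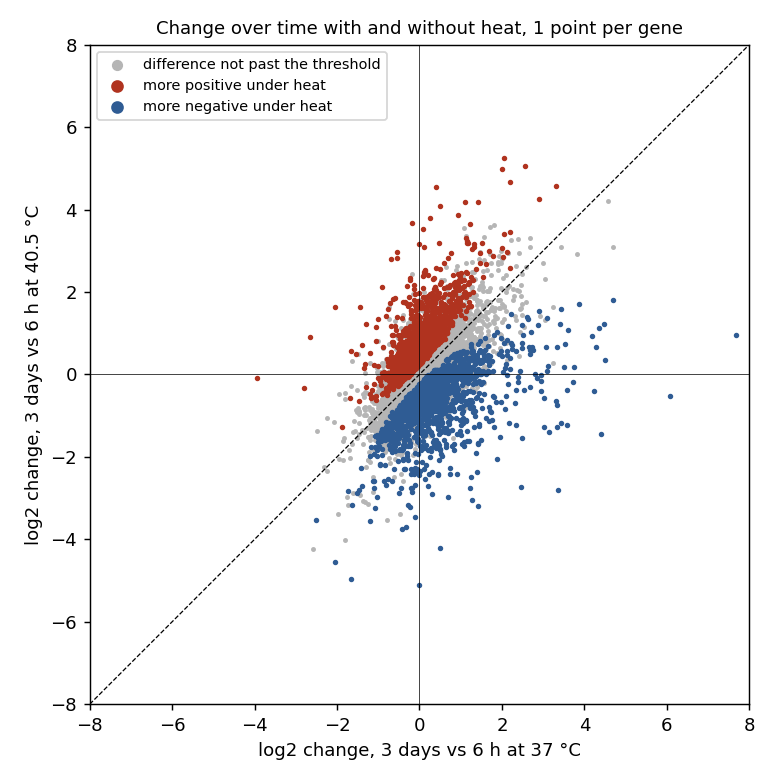
Each point is a gene, with its log2 change from 6 h to 3 days at 37 °C on the horizontal axis and at 40.5 °C on the vertical axis, and the dashed line marks equal change. Coloured genes, 1960 more positive and 1927 more negative under heat, passed an adjusted p of 0.05 (limma) for the difference of these changes.

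The difference between the changes was tested directly, as an interaction. Limma called it in 3887 genes (29.2%) at an adjusted p of 0.05, 1960 (14.7%) more positive and 1927 (14.5%) more negative under heat. By its construction this is also the difference between the heat effect at 3 days and at 6 h. Replicates 1 and 2 alone gave 5086 genes. The count was 1897 without the replicate block, and 2423 without replicate 1 of the 3-day control.

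This test split the genes that rose under heat. In 1546 of the 3779 (40.9%) the rise was larger than at 37 °C, in 87 it was smaller, and in 2146 (56.8%) the difference did not pass. The 1546 had a median log2 change of 0.68 under heat and of -0.0036 at 37 °C. Their median value was 509.4 at 6 h and 840.9 at 3 days under heat, and 647.6 and 652.1 at 37 °C. The median of this group was thus below that of the control at 6 h of heat and above it at 3 days. Both the heated and the 37 °C libraries enter the difference that chose these genes, so the choice favours this order.

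Genes that fell under heat split in a similar way. In 1400 of the 3847 (36.4%) the fall was larger than at 37 °C, in 38 it was smaller, and in 2409 (62.6%) the difference did not pass. The median log2 change of the 1400 was -0.69 under heat and 0.019 at 37 °C. Their median value was 935.5 at 6 h and 577.5 at 3 days under heat, and 885.5 and 835.8 at 37 °C. These counts and medians share the heated and the 37 °C libraries with the choice of the genes, so they describe the groups and do not test them again.

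In the fit with the replicate block, falls of at least 1 went beyond the change at 37 °C in most genes. Of the 672 genes that fell by at least 1, 63.1% did so, as did 72.4% of the 105 that fell by at least 2. For rises the shares were 48.4% of 912 genes and 54.6% of 183. Among the few changes of at least 3 the shares were 62.5% of 24 falls and 71.4% of 42 rises. Over all genes tested the difference was called as more negative under heat in 14.5% and as more positive in 14.7%. The change under heat is part of the difference, so choosing genes by a large change raises these shares and they are no separate support. These shares were taken with the block only, and without it the difference was called in 1897 genes in place of 3887. Of the 912 genes, 494 (54.2%) also rose at 37 °C, where 18.3% of all genes rose. Of the 672, 305 (45.4%) also fell there, against 19.0% of all genes.

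A further set of genes moved in opposite directions with and without heat, both changes and their difference being past the threshold. In 235 genes the level fell under heat and rose at 37 °C, with median log2 changes of -0.54 and 0.53. In 179 genes it rose under heat and fell at 37 °C, with medians of 0.35 and -0.35. Another 408 genes rose at 37 °C by a median of 0.71 and were not called under heat, where their median was -0.033, with the difference called. The reverse, a fall at 37 °C that was not called under heat, held for 339 genes with medians of -0.43 and 0.061.

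Large rises over 3 days at 37 °C were smaller under heat. The 144 genes that rose by at least 2 at 37 °C had a median log2 change of 2.49 there and of 1.02 under heat. A rise was called under heat in 79 of them (54.9%, against 28.4% of all genes tested) and a fall in 10 (6.94%, against 28.9%). The difference was called as lower under heat in 83 (57.6%, against 14.5%) and as higher in 11, against 14.7% of all genes. The 630 genes that rose by at least 1 at 37 °C had medians of 1.415 there and 0.82 under heat. For the 141 that fell by at least 1 the medians were -1.21 and -1.16. The difference was called lower and higher in 263 and 53 of the 630, and in 24 and 28 of the 141. Choosing genes by a large change at 37 °C favours a smaller value in the other comparison, and this was not corrected for.

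The direction of change went with expression level. The tested genes were divided into 5 equal bins by their mean over the 13 libraries. In the highest bin 38.9% fell and 27.9% rose under heat. In the lowest bin, with means from 3.12 to 88.3, 18.1% fell and 24.6% rose. Of the changes of at least 1, the lowest bin held 422 of the 912 rises and 296 of the 672 falls, and the highest bin 70 and 93. A like tilt was seen at 37 °C, where 28.7% of the highest bin fell and 21.1% rose, against 4.59% and 14.6% of the lowest.

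The genes called under heat held a large part of the reads. Genes that rose under heat held 28.2% ± 0.74 (SD, n = 3) of the reads after 6 h of heat and 43.7% ± 0.18 (SD, n = 3) after 3 days. Genes that fell held 42.4% ± 0.50 (SD, n = 3) and 27.5% ± 0.12 (SD, n = 3). These genes were chosen in the same heated libraries, so the direction of both shifts follows from the choice and is no further support. In the 37 °C libraries, which are outside the contrast that chose them, the genes that rose held 28.5% ± 0.63 (SD, n = 3) at 6 h and 33.3% ± 0.59 (SD, n = 2) at 3 days. The genes that fell held 41.7% ± 0.45 (SD, n = 3) and 37.0% ± 0.32 (SD, n = 2) there.

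Fewer genes carried the bulk of the reads after 3 days than after 6 h, with and without heat. The genes needed to hold 50% of a library's reads numbered 444 to 463 after 6 h of heat and 391 to 433 after 3 days. At 37 °C they numbered 496 to 507 at 6 h and 439 to 453 at 3 days. The heated groups did not overlap, but with 3 libraries against 3 the exact two-sided permutation test cannot go below its value here, p = 0.1.

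Genes without a read in one heated group had low values in the other. In the whole table, 35 genes had 0 reads in all 3 libraries after 6 h of heat and a read in all 3 after 3 days, and 66 had the reverse. No gene with 0 reads in all 3 libraries of a heated group had a value of at least 10 in all 3 libraries of the other. The highest mean of a gene without a read in the 6 h heat group was 9.37 after 3 days, and the highest mean of a gene without a read in the 3-day heat group was 8.31 after 6 h.

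The recovery libraries show where these genes stood when heat ended after 6 h. They were compared with the 3-day control, a comparison that shares no library with the heated pairs. The 912 genes that rose by at least 1 under heat had a median log2 difference of 0.14 between recovery and control. Of these genes 68.9% were higher after recovery, against 48.8% of all genes tested. The 672 genes that fell by at least 1 had a median of -0.36, and 82.9% were lower, against 51.2% of all genes tested. Within replicates 1 and 2 alone these shares were 68.4% and 81.9%, and with genes called from the 6 heated libraries alone 68.9% and 83.0%.

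Called changes after recovery leaned the same way. The recovery comparison called 5.88% of genes by limma, 401 higher (3.02%) and 381 lower (2.87%). Among the 672 genes with a fall of at least 1 under heat, 144 were lower (21.4%) and 4 higher. Among the 912 with such a rise, 49 were higher (5.37%) and 1 lower. The number of calls changed with the setting. A fit of replicates 1 and 2 alone, the numbers both groups hold, gave 1191 higher and 1208 lower genes, and 290 of 731 genes with a fall of at least 1 (39.7%) were then lower and 12 higher. Without the block the recovery comparison called 88 genes higher and 20 lower, and of the genes then called with a fall of at least 1 under heat 5 were lower and 3 higher.

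**Figure D4:**
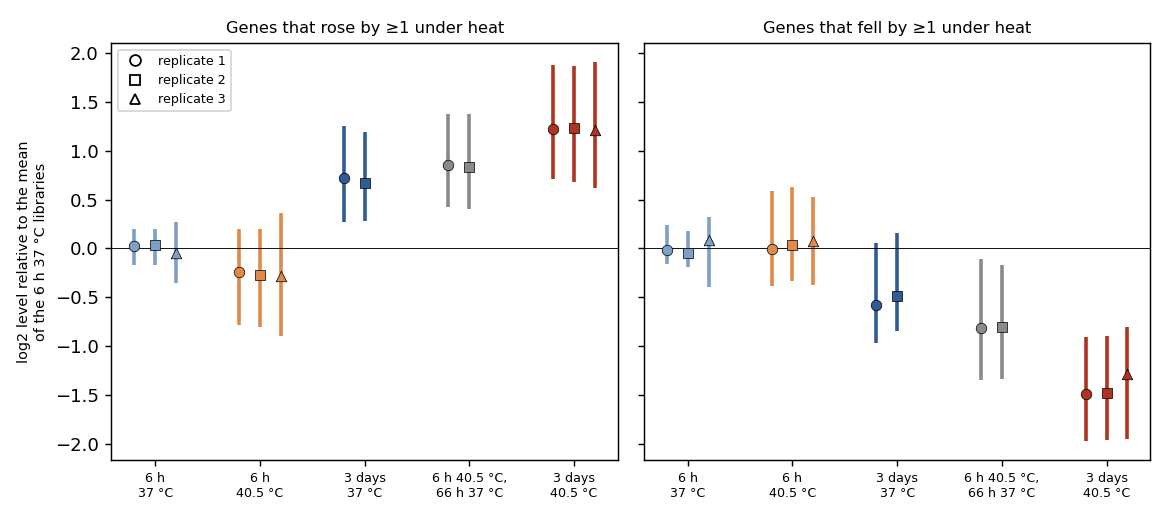
Symbols are the median over genes, and bars the quartiles, of the log2 level of each library relative to the mean of the 6 h 37 °C libraries, for the 912 genes that rose (left) and the 672 that fell (right) by at least 1 from 6 h to 3 days at 40.5 °C. For the genes that fell, the medians are -0.58 and -0.48 in the 3-day control, -0.81 in both recovery libraries, and -1.49 to -1.28 after 3 days of heat.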

How the data were processed

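Polyadenylated RNA was sequenced from 13 cultures. Per the submitters' processing notes, cutadapt, STAR, HTSeq and DESeq were used with the genome build ARS-UCD1.2. Their versions and the annotation release are not given in the sources used here. The deposited values are a normalised signal: gene counts divided by a size factor per library by the authors with DESeq, per the file headers. All values in each library were whole multiples of the value of 1 read within 0.01 reads, so reads were recovered by division, 14859428 to 39117065 per library, as input to count tests. Each of the 16595 genes in the file sums to 6 or more reads.

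Genes with a value of at least 10 in at least 2 of the 6 heated libraries were tested (13289, 80.1% of the table, 99.96% of the summed values). The log2(value + 1) values entered limma 3.58.1 (R 4.3.3) with empirical Bayes moderation, a mean-variance trend, 5 group means over 13 libraries and the replicate number as a block, leaving 6 residual degrees of freedom. Fold changes on this scale understate those of low genes. Tests were two-sided, adjusted by Benjamini-Hochberg over all genes tested, at a threshold of 0.05.

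Groups and replicate numbers came from the sample titles, and no label says what a number shares. Deviations from the group mean correlated in the heated pairs with r of 0.37, 0.31 and 0.53, all above 0.1, so the numbers paired these libraries. Replicate 1 of a heated group and replicate 2 of the other correlated as highly, with r of 0.35 and 0.32, so the pairing rests mainly on replicate 3. Between the heated and the 2-library groups same-numbered libraries gave r from -0.0043 to 0.11, so the numbers did not pair those, and the block there serves to balance replicate 3.

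Genes given by identifier were the 2 highest and 2 lowest log2 changes past the threshold, with the same sign in 3 of 3 pairs and a mean of at least 50 in the higher group. Gene lists by symbol could not be matched and were not used. Count tests on these reads used edgeR 4.0.16 (quasi-likelihood) and DESeq2 1.42.0. Other alternatives were pseudocounts, filters, scalings, variance models, library subsets and each replicate left out. The fit was first tried on simulated data. The comparison and its rules were chosen with earlier results of these data known.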

Additional observations from a re-analysis of the deposited data

Results flagged for a closer look

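The change from 6 h to 3 days differed between 40.5 °C and 37 °C by the interaction test in 3887 genes (limma, adjusted p of 0.05). Each of the 4 genes given by identifier also differed by that test, ENSBTAG00000012370 by 3.19 on the log2 scale, ENSBTAG00000023600 by 2.51, ENSBTAG00000047894 by -5.11 and ENSBTAG00000016158 by -3.30. These genes were chosen for their change under heat, which is part of the difference. Groups of 3 or fewer libraries were not tested for a single outlying value.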

How the results depend on the processing

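The count of genes changed between 6 h and 3 days at 40.5 °C stayed within 1.5 times 7626 under 24 alternatives, from 5769 at an adjusted p of 0.01 to 9374 with array quality weights, and from 6453 to 7536 with single heated libraries left out. The share of higher genes lay between 47.7% and 50.4%. From only the libraries of the groups compared, the counts were 6978 under heat and 5952 at 37 °C. At 37 °C the count was 3122 at an adjusted p of 0.01 and 2676 to 5296 with single libraries left out. The count of genes whose change differed between temperatures rested on the replicate block: it was 1897 without the block in limma and 1887 without it in edgeR (added after seeing the data), and 2073 at an adjusted p of 0.01. With single libraries left out it was 2423 to 4677. Where 1 library of the 3-day control remained, it was assumed to vary like the other groups. Without the block the counts under heat and at 37 °C, 5988 and 3429, stayed within 1.5 times, while the recovery comparison went from 401 higher and 381 lower genes to 88 and 20. Of 212 alternative values for the genes given by identifier, 204 kept their direction and side of the threshold and 8 lost the call, all for the difference from 37 °C in ENSBTAG00000012370 or ENSBTAG00000023600, and 0 reversed. With quantile normalization the rises and falls of at least 1 were 832 and 772 under heat and 492 and 208 at 37 °C. The alternatives for reading the genes in the recovery and 37 °C libraries, calls from the 6 heated libraries alone included, were also added after seeing the data. Depth limits genes with few reads, where a change of 1 read moves the log2 value most.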
